A study of Mus musculus with 8 samples.

Results

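Acetylation of histone H3 at lysine 9 (H3K9ac) was compared between fasted and fed mice that had received no tetracycline. The comparison holds 2 of the 8 samples of the series, Fast_(-Tetra) and Fed_(-Tetra), and each sample has 2 deposited peak lists, here Fed list 1, Fed list 2, Fast list 1 and Fast list 2. All mice were male C57BL/6J animals aged 9 weeks, fed or fasted for 24 h, and the tissue was small intestinal crypts, released with EDTA and dissociated with trypsin. CUT&Tag was used: a transposase tethered by antibody cuts and tags the DNA around a mark for sequencing. The other samples served only as readouts that took no part in choosing regions: H3K27ac, acetylation of lysine 27 of the same histone, from Fed_(-Tetra) and Fast_(-Tetra), and both marks from Fed_(+Tetra) and Fast_(+Tetra) mice, which were given tetracycline for 21 days. The labels do not say whether lists 1 and 2 of a sample come from different mice, or whether the H3K27ac and H3K9ac lists share mice, so the spread given is that between lists and may be technical.

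H3K9ac is laid down by acetyltransferases of the GCN5 and PCAF family, removed by histone deacetylases and sirtuins, and is found mainly around the start sites of active genes. Acetylation depends on acetyl-CoA, and ketone bodies and microbial short-chain fatty acids can inhibit deacetylases, which is why feeding and the microbiota are studied through this mark. Intestinal crypts hold Lgr5 stem cells, Paneth cells and dividing progenitors of the absorptive and secretory lineages.

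Overlapping peaks of the 4 lists on chromosomes 1 to 19, X and Y were merged into 156604 regions. Regions found in both Fast lists but in no Fed list are called Fast-only, and the reverse Fed-only. There were 1921 Fast-only regions, 1.23% of all regions, and 1134 Fed-only regions, 0.724%. Genes count as marked if 1 kb or less separates a peak from the start or the end of the gene. Of 21887 protein-coding genes, 270 (1.23%) were Fast-only by this measure and 325 (1.48%) Fed-only. With 2 lists against 2, no permutation test can give p below 0.33, so these calls are a description of 4 lists. In crypt suspensions, fewer cells with a mark and less of the mark per cell cannot be told apart.

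The promoters of 6 called genes are printed first, because they show the range of start-site sequence on which Fast-only and Fed-only calls fell. Each overlaps a region of its class and runs from 250 bases before to 50 bases after the start site, 5′ to 3′ on the gene's strand, from the RefSeq promoter table for GRCm38.p6. Capitals mark matches on either strand to CCAAT (the CCAAT box), to GGGCGG (the GC box core), to TATAAA (the TATA box), to CACGTG (an E-box) and to TGACGTCA (the cAMP response element), and matches may overlap. The Fast-only genes are Rgs2, a regulator of G protein signalling (chr1:144004100-144004399, minus strand, 33 CG dinucleotides), Sytl1, a Rab27-binding protein of vesicle transport (chr4:133263038-133263337, minus strand, 5 CG), and Reg3b, an antimicrobial lectin of the gut epithelium (chr6:78370635-78370934, plus strand, 3 CG).
Rgs2: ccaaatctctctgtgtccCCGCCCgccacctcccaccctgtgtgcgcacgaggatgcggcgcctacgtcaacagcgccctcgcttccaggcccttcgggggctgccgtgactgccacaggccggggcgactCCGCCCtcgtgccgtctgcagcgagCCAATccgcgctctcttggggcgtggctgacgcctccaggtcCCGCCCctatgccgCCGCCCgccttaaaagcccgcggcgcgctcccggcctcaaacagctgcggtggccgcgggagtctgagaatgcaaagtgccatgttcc
Sytl1: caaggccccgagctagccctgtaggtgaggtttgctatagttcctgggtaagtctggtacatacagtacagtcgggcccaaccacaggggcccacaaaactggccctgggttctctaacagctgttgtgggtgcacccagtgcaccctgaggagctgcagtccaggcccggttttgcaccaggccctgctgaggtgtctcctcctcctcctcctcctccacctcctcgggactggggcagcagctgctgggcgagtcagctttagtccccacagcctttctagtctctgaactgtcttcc
Reg3b: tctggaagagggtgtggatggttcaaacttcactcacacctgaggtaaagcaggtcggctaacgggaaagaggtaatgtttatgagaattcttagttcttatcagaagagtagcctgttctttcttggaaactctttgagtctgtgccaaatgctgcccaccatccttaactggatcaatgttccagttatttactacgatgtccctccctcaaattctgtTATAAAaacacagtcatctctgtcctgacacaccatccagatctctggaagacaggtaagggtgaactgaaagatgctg
The Fed-only genes are Lamtor2, a subunit of the Ragulator complex that holds nutrient-sensing mTORC1 at lysosomes (chr3:88552902-88553201, minus strand, 19 CG), Cep131, a protein of centriolar satellites (chr11:120086778-120087077, minus strand, 29 CG), and Fasn, fatty acid synthase (chr11:120824498-120824797, minus strand, 39 CG).
Lamtor2: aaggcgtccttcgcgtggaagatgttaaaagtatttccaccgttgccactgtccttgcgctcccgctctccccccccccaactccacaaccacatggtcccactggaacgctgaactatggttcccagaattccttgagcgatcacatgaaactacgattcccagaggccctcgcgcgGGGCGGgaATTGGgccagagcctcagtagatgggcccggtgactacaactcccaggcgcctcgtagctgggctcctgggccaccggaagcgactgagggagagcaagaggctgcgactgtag
Cep131: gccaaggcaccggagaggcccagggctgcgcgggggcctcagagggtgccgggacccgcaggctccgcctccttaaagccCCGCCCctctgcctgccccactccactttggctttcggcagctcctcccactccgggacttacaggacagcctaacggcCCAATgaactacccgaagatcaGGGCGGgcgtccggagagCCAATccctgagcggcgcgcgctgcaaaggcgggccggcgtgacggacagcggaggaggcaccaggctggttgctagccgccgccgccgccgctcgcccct
Fasn: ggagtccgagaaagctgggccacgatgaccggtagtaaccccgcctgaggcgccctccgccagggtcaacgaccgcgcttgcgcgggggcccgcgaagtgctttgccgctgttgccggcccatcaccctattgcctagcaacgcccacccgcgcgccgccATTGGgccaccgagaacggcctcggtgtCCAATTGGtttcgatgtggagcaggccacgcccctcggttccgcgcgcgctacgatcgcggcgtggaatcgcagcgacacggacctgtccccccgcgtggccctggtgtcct

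The 4 lists differed widely before any feeding comparison. There were 17249 peaks in Fed list 1, 51552 in Fed list 2, 99050 in Fast list 1 and 35889 in Fast list 2. The highest and the lowest value thus belong to Fast list 1 and Fed list 1, while list 2 was larger in Fed. The mean log2 peak number was 1.0 higher in Fast (exact permutation p = 0.67, two-sided, n = 2 lists against 2), made up of 2.52 over lists 1 and -0.52 over lists 2. Covered length was 16.5 and 38.9 Mb in the Fed lists and 47.3 and 27.1 Mb in the Fast lists, a mean log2 difference of 0.50 (exact permutation p = 0.67, n = 2 against 2). Both measures overlap between the feeding states.

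Fast list 1 stood apart in peak width. Its median peak was 423 bp wide, against 834 and 559 bp in the Fed lists and 555 bp in Fast list 2, and 17.2% of its peaks had exactly the narrowest width of 200 bp, against at most 1.45% elsewhere. Peaks of at least 500 bp numbered 15213 and 30967 in Fed and 36039 and 21150 in Fast, so the extra peaks of Fast list 1 are mostly narrow. In the 50 bp just under that width lay 920 and 5005 Fed peaks (lists 1 and 2) and 8969 and 3155 Fast peaks, and in the 50 bp from that width up 903 and 4251 Fed and 9528 and 2958 Fast peaks. The authors' read totals are not given with the lists, so the depth behind each is unknown.

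**Figure D1:**
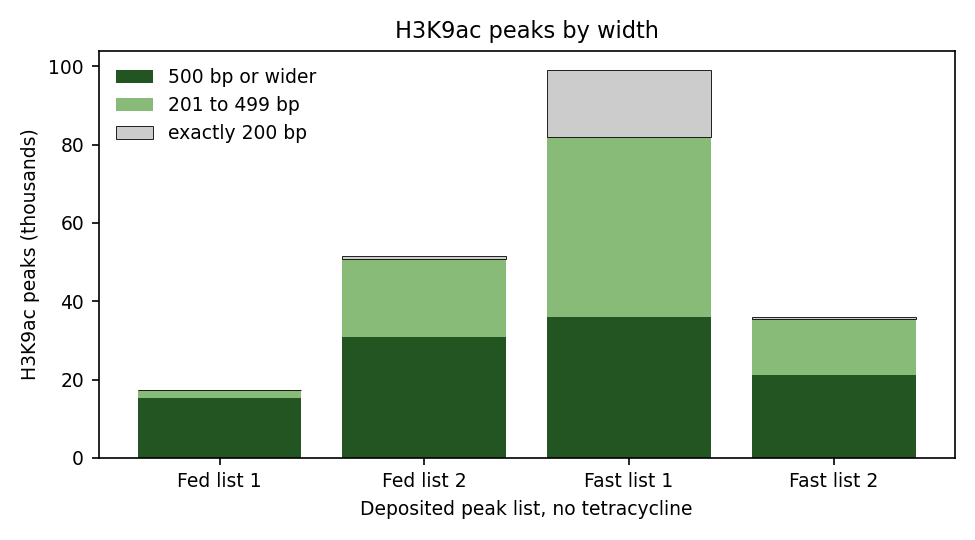
Number of H3K9ac peaks in each of the 4 lists without tetracycline (y axis, peaks divided by 1000), split by peak width. Fast list 1 holds 99050 peaks, of which 36039 are at least 500 bp wide, and Fed list 1 holds 17249, of which 15213 are.

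Lists of the same state did not overlap more than lists of different states. The Jaccard index, base pairs covered by both lists over those covered by either, was 0.273 between the Fed lists and 0.154 between the Fast lists. Across states it was 0.156 and 0.277 for Fed list 1 with Fast lists 1 and 2, and 0.169 and 0.273 for Fed list 2. The 3 indices that involve Fast list 1 are the lowest. Of all regions 85.7% had a peak in 1 list only, and 79767 of those came from Fast list 1. A core of 6705 regions had a peak in all 4 lists.

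In the core, peaks covered a median of 1167 and 1546 bp per region in Fed lists 1 and 2 and 1219 and 1457 bp in Fast lists 1 and 2. The mean log2 width differed by -0.052, Fast minus Fed (exact permutation p = 0.67, n = 2 lists against 2). Both lists 2 were wider than both lists 1, and the feeding states overlapped.

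The cell type named by the labels was checked against marker genes at their ends. Of 18 intestinal epithelial identity genes, 14 and 18 were marked in the Fed lists and 17 and 17 in the Fast lists. Cdx2, the homeobox factor that specifies intestine, had peaks 3504 and 7378 bp wide in Fed and 2617 and 9082 bp wide in Fast. Of 15 immune genes 3, 4, 7 and 2 were marked in Fed lists 1 and 2 and Fast lists 1 and 2, and Ptprc, the pan-leukocyte gene, Cd4 and Ms4a1 had no peak in any. Of 14 stromal, endothelial and glial genes 0, 3, 4 and 1 were marked, with none at Pecam1, Cdh5, Col3a1 or Acta2. Of 14 genes of other tissues 2, 3, 5 and 4 were marked, and Alb and Afp, the liver serum protein genes, had no peak. Immune, stromal and other-tissue counts were each highest in Fast list 1, which has the most peaks. Their part in the feeding comparison was not tested.

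Which direction was larger depended on which peaks were admitted. With all peaks Fast-only regions outnumbered Fed-only regions by a log2 ratio of 0.76. Among peaks at least 500 bp wide, 65066 merged regions held 750 Fast-only (1.15%) and 1097 Fed-only (1.69%) regions, a log2 ratio of -0.55. With every list reduced to its 17249 highest-scoring peaks, the size of Fed list 1, the counts were 180 and 1772. Using the better-scoring 0.5 of every list gave 585 and 736. Fast-only regions were thus the smaller class in each of these 3 settings. Without Fast list 1, 21261 regions were in Fast list 2 and no Fed list and 2707 in both Fed lists and not Fast list 2, where a call asks for fewer lists.

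**Figure D2:**
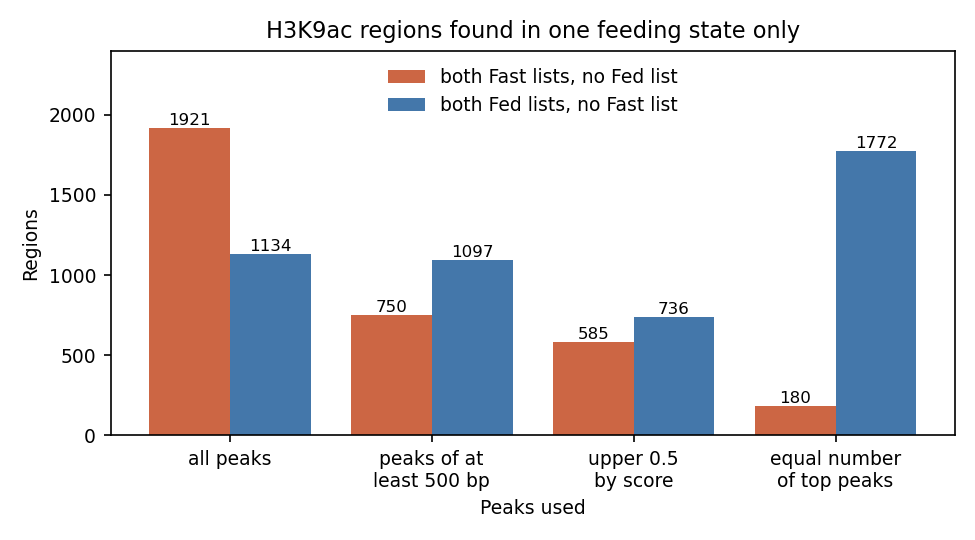
Number of Fast-only and Fed-only regions (y axis) for 4 choices of peaks (x axis). Fast-only regions are more numerous with all peaks (1921 against 1134) and less numerous in the other 3 choices.

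A stricter set of regions kept its call in both analyses. Of the 1921 Fast-only regions, 649 overlapped a region also called Fast-only from peaks at least 500 bp wide, and of the 1134 Fed-only regions 890 overlapped a Fed-only one. The authors' score, which has no stated unit and is used here only for ranking within a list, placed Fast-only regions in the middle of their lists. Their median percentile was 42.1 in Fast list 1 and 42.9 in Fast list 2. Fed-only regions had median percentiles of 39.9 in Fed list 1 and 64.5 in Fed list 2. Core regions ranked higher, between 74.2 and 91.3 in the 4 lists.

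Fast-only and Fed-only regions lay in different places. Of the Fast-only regions 249 (13.0%) were within 1 kb of a gene end, 1022 (53.2%) elsewhere within a gene and 650 (33.8%) between genes. Of the Fed-only regions 383 (33.8%) were at a gene end, 480 (42.3%) within a gene and 271 (23.9%) between genes. Core regions were at gene ends in 79.1% of cases and regions in 1 list in 5.37%, so both classes stood between these. Fast-only regions were narrower, with a median of 725 bp (quartiles 584 and 931) against 980 bp (773 and 1289) for Fed-only and 1835 bp for core regions. With peaks at least 500 bp wide, the shares at gene ends were 20.7% of Fast-only and 38.7% of Fed-only regions. Regions are not independent replicates, so no test was made on them. The share of single peaks at gene ends in each list was 48.8% and 23.2% in Fed and 12.7% and 26.7% in Fast, a mean difference of -16.3 percentage points (exact permutation p = 0.67, n = 2 lists against 2).

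Promoter sequence was read for 17492 genes that have at least one entry in the RefSeq table, 21263 promoters in all. Fast-only regions overlapped 137 promoters, with a median of 13 CG dinucleotides in 300 bases (quartiles 7 and 21), the median of all promoters. Fed-only regions overlapped 344 promoters, with a median of 22 CG (15 and 28), next to 23 in the 6094 promoters in core regions and 4 in the 9709 promoters with no peak. The letters GGGCGG were found on either strand in 51.1% of Fast-only and 69.5% of Fed-only promoters. They were in 68.97% of promoters in core regions and 46.2% of all promoters, so the Fed-only share was near that of core regions. TATAAA was found in 8.76% and 4.36%, against 5.6% in core regions and 12.6% of all. CCAAT differed little, with 41.6% and 38.7% against 37.7% in core regions and 38.2% of all. CACGTG was found in 9.49% and 11.6%, against 9.98% in core regions and 7.84% of all promoters. TGACGTCA was found in 2.92% and 3.20%, against 3.74% in core regions and 2.23% of all. The letters AGGTCA repeated with 1 base of any kind between are the element read by PPAR and HNF4 type receptors. This repeat was in none of the promoters of either class, in 0.0656% of those in core regions and in 0.0470% of all. These are matches of letters in the printed kind of window, not binding sites. The promoters of Rgs2, with 4 GGGCGG matches, and of Reg3b, with 1 TATAAA and 3 CG, lie above and below the quartiles of CG for Fast-only promoters.

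**Figure D3:**
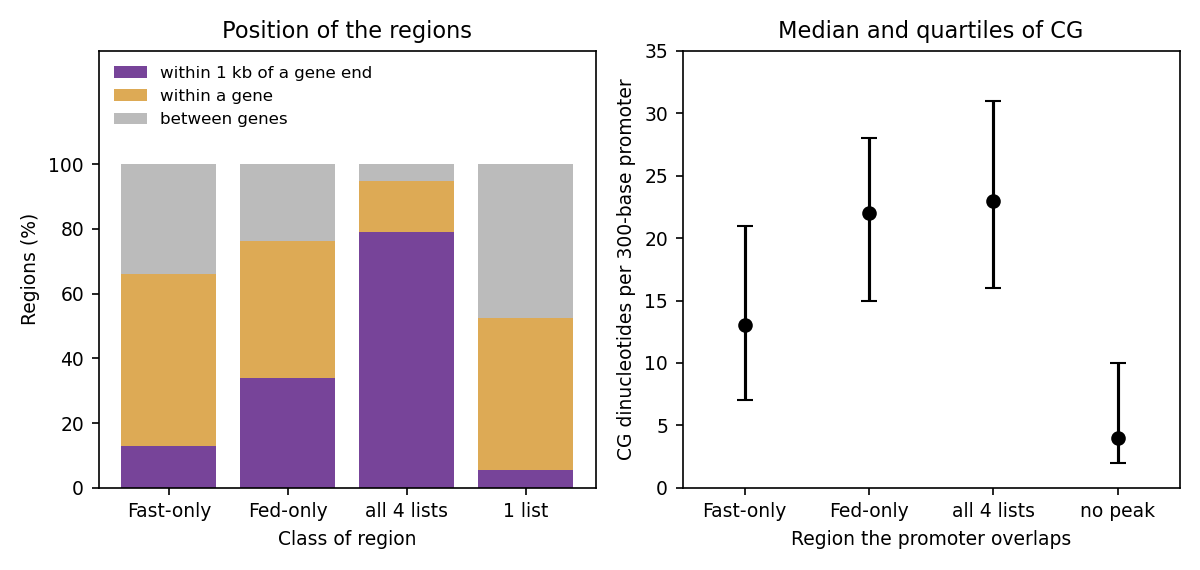
Left, share of regions (y axis, percent) at a gene end, within a gene or between genes, for Fast-only, Fed-only, core and single-list regions. Right, CG dinucleotides per promoter of 300 bases, as median (point) and quartiles (bars), by the region a promoter overlaps. Fed-only regions are at gene ends in 33.8% of cases and Fast-only in 13.0%, and their promoters have medians of 22 and 13 CG.

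The regions were then read in the 12 lists that had no part in choosing them. For each of these lists the percentage of Fed-only regions with a peak was subtracted from that of Fast-only regions. In H3K27ac without tetracycline this difference was -42.9 and -38.8 percentage points in Fed lists 1 and 2 and -28.5 and -31.2 in Fast lists 1 and 2. In H3K27ac with tetracycline it was -39.6 and -41.1 in Fed and -33.7 and -31.5 in Fast. In H3K9ac with tetracycline it was -32.1 and -29.7 in Fed and -21.3 and -17.0 in Fast. Fast and Fed lists did not overlap in any of the 3 sets. The mean was -27.2 points in Fast (SD 6.60, n = 6 lists) and -37.4 in Fed (SD 5.26, n = 6), a difference of 10.1 points (exact permutation p = 0.0093 within the 3 sets, two-sided, the smallest that 216 arrangements can give). The Fast value exceeded the Fed value in 6 of 6 same-number pairs. With the 2 lists of a sample averaged to 1 value the exact permutation p was 0.25, the smallest possible.

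Both classes contributed. Fast-only regions carried a peak in 34.3% of cases on average in the Fast readout lists and in 28.6% in the Fed ones, and Fed-only regions in 61.5% and 65.9%. Fast-only regions differed most in H3K27ac without tetracycline, with a peak in 41.8% of cases in Fast and 33.7% in Fed. Fed-only regions differed most in H3K9ac with tetracycline, with 43.9% in Fast and 50.1% in Fed. Regions outside both classes moved as well. Core regions had a peak in 90.5% of cases in Fast and 93.7% in Fed lists, and single-list regions in 8.08% and 6.5%. Single-list minus core regions thus differed by 4.68 points between Fast and Fed lists, beside the 10.1 points above. By set, it differed by 2.35 points in H3K27ac without tetracycline, 3.66 in H3K27ac with it and 8.04 in H3K9ac with it, beside 10.96, 7.71 and 11.7 points for the classes. Its part in the result was not tested. Marks at the 15 immune genes, of 30 possible in 2 lists, numbered 13 in Fast and 14 in Fed for H3K27ac without tetracycline, 13 and 6 with it, and 9 and 5 for H3K9ac with it. Ptprc itself had H3K27ac in both Fast and no Fed list in either tetracycline state. Marks at the 14 stromal, endothelial and glial genes, of 28 possible, numbered 3 and 3, 1 and 1, and 6 and 0 in the same order. The part of other cell types in the readout difference was not tested. Among regions 700 to 1000 bp wide away from gene ends, 591 Fast-only and 307 Fed-only, the difference was 8.97 points (exact permutation p = 0.0093). It was 16.8 points over regions at gene ends and 8.15 over those away from them (exact permutation p = 0.0093 each). The result depended on the lists that chose the regions: without Fed list 1 it was 3.62 points (exact permutation p = 0.074), without Fast list 2 5.64 points (p = 0.065, same permutation test), without Fed list 2 5.86 (p = 0.019, same permutation test) and without Fast list 1 6.86 (p = 0.0093, same permutation test).

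**Figure D4:**
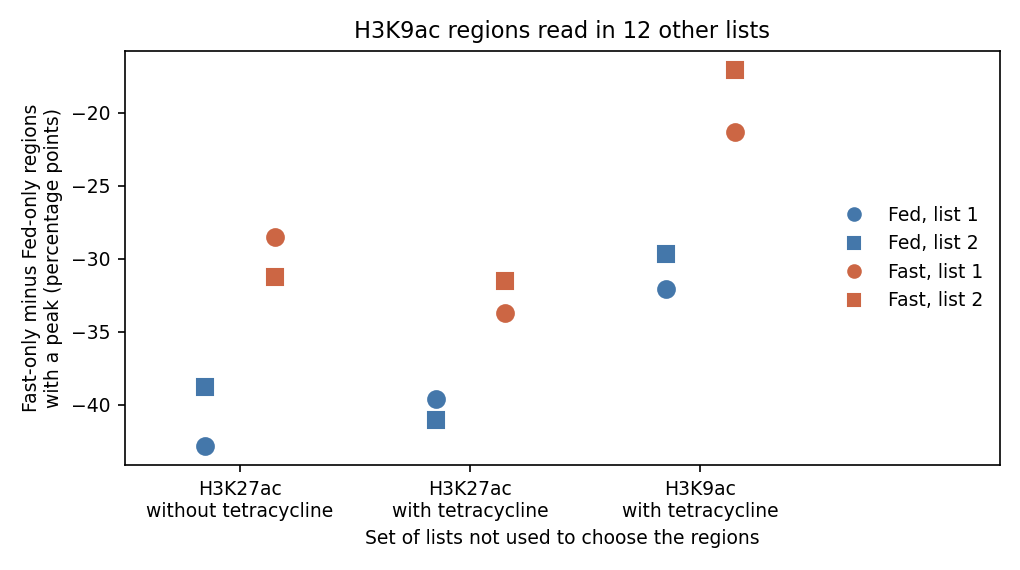
Percentage of Fast-only minus percentage of Fed-only H3K9ac regions that have a peak (y axis, percentage points) in each of 12 lists not used to choose them. In all 3 sets of lists both Fast lists lie above both Fed lists, with means of -27.2 and -37.4 points.

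Few regions repeated the full pattern elsewhere. Of the Fast-only regions 70 (3.64%) were also in both Fast and no Fed list of H3K27ac without tetracycline, against 0.918% of all regions, and 5 (0.260%) took the opposite class, against 0.371% of all regions. Of the Fed-only regions 17 (1.5%) were also Fed-only for H3K27ac and 10 (0.882%) took the opposite class, against 0.371% and 0.918% of all regions. In H3K9ac with tetracycline 60 Fast-only regions (3.12%) and 46 Fed-only regions (4.06%) repeated their class, against 0.910% and 0.650% of all regions. The opposite class was taken there by 32 Fast-only (1.67%) and 27 Fed-only regions (2.38%), also above the 0.650% and 0.910% of all regions. In H3K27ac with tetracycline 35 Fast-only (1.82%) and 14 Fed-only regions (1.23%) repeated their class, against 0.599% and 0.362% of all regions. There 12 Fast-only (0.625%) and 9 Fed-only regions (0.794%) took the opposite class, against 0.362% and 0.599% of all regions. H3K27ac was absent from all 4 lists without tetracycline at 47.7% of Fast-only and 13.9% of Fed-only regions, and present in all 4 at 22.5% and 57.6%. Over all regions it was absent from all 4 at 75.2% and present in all 4 at 11.9%. A region with no peak in a set of lists can take neither class there. In every set such regions were a larger share of all regions than of Fast-only or Fed-only regions. The part of this in the recurrence was not tested.

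The highest-ranked region that was Fast-only for both marks lay at an end of Sgk1, the serum and glucocorticoid regulated kinase of ion transport (chromosome 10, 21999801 to 22002327, 2527 bp). Its H3K9ac peaks scored 259 in Fast list 1 and 390 in Fast list 2. Next came the region at Sytl1 (chromosome 4, 133262062 to 133263750), with scores of 217 and 247. Read at its gene ends, Sytl1 had H3K27ac without tetracycline in 1 Fed list, so the gene was not Fast-only for that mark. A region between genes on chromosome 4 (56222170 to 56223047) scored 192 and 150. The nearest gene, Actl7b, was 516958 bp away. Among the leading regions was also that of Reg3b, whose promoter is printed above, on chromosome 6 from 78370606 to 78371602, with scores of 152 and 113. Fed-only regions for both marks were led by the start regions of Cep131 (chromosome 11, 120085686 to 120087282), Ubtd2 (chromosome 11, 32454638 to 32455797) and Pam, which encodes the enzyme that amidates peptide hormones (chromosome 1, 98095239 to 98096121). Regions within Smtn and Tspan32 followed.

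With tetracycline, the H3K9ac regions that repeated as Fast-only were led by a region nearest to Tbc1d1, 71275 bp away on chromosome 5 (64422761 to 64423586). Regions within Rreb1 (chromosome 13, 37853674 to 37854460), Clasp1, Best3 and Phldb2 followed. Those that repeated as Fed-only were led by a region nearest to Pdia4 (chromosome 6, 47771138 to 47773454) and regions within Lrrc59, next to Cfl1, within Thra, the thyroid hormone receptor alpha gene, and within Abtb1.

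Away from gene ends, 520 Fast-only and 542 Fed-only regions were called with both peak sets. The highest-ranked Fast-only ones were nearest to Banf2 (chromosome 2, 144078229 to 144079437) and Cxcl17, a mucosal chemokine gene (chromosome 7, 25427982 to 25428842), and within Fam149a (chromosome 8, 45357424 to 45359026), Pbld2 and Eepd1. The Fam149a region had no H3K27ac in the 4 lists without tetracycline, and the other 4 had it in all 4. The highest-ranked Fed-only ones were nearest to Gtpbp4 (chromosome 13, 9011338 to 9012201), within Fhl2 (chromosome 1, 43163107 to 43164479), nearest to H2-Q2 (chromosome 17, 35358271 to 35360173), within Ppard, the fatty-acid-sensing nuclear receptor PPAR delta (chromosome 17, 28279357 to 28281654), and within Smad7, an inhibitor of TGF-beta signalling. The Ppard region scored 305 and 1707 in Fed lists 1 and 2 and carried H3K27ac in all 4 lists without tetracycline. All positions are GRCm38, counted from 1.

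With peaks at least 500 bp wide, 151 genes (0.690%) were Fast-only and 409 (1.87%) Fed-only. At start sites alone, known for 17492 genes, 179 (1.02%) were Fast-only and 301 (1.72%) Fed-only. With both peak sets 124 genes were Fast-only and 295 Fed-only, 0.567% and 1.35% of all genes. The 10 highest-ranked Fast-only genes were Cdk19, a kinase of the Mediator complex, Malrd1, linked to bile acid balance, Sytl1, Rgs2, Foxn3, a forkhead repressor, Bbs2 of the ciliary BBSome, Zbtb3, Spag6l of the ciliary axoneme, Pcbd1, a cofactor of HNF1 factors, and Gm1123. Cdk19 had peaks of 1378 and 1795 bp in Fast lists 1 and 2 with scores of 284 and 552, and none in Fed. Rgs2 had peaks of 907 and 1023 bp with scores of 269 and 210. Pcbd1 had peaks of 1392 and 1346 bp with scores of 451 and 134. Except at Spag6l, which had no peak in the 12 other lists, these genes were also marked in other lists, including Fed lists. Rgs2, for example, had H3K9ac in both Fed lists with tetracycline. At start sites Sytl1, Rgs2, Bbs2, Zbtb3, Spag6l, Pcbd1 and Gm1123 were Fast-only, and Foxn3 had no H3K9ac peak in any list without tetracycline. No start site was known for Cdk19 and Malrd1.

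The 10 highest-ranked Fed-only genes shared 8 peaks, since Lamtor2 lies next to Ubqln4, a ubiquilin, and Uqcrq, a complex III subunit, next to Gdf9. The peak of the first pair was 2134 and 2249 bp wide in Fed lists 1 and 2, with scores of 705 and 2300 that placed it in the top percentiles of both lists (98.9 and 99.7). Neither Fast list had a peak there. Both genes were marked in all 12 other lists, both Fast lists with tetracycline included. Coro7, a Golgi coronin, scored 515 and 1371, and Srr, serine racemase, 531 and 868. Tnfrsf12a, the receptor for the cytokine TWEAK, scored 370 and 535. Tmem259, Myo1d and Arsa, arylsulfatase A, completed the group. At start sites Lamtor2, Ubqln4, Coro7 and Arsa were Fed-only, and Srr and Tnfrsf12a were not. No start site was known for Tmem259, Gdf9, Uqcrq and Myo1d. All 10 genes had H3K27ac in all 8 lists of that mark, the Fast lists included.

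Genes that followed feeding for both marks were few. For H3K27ac without tetracycline 283 genes (1.29%) were Fast-only and 110 (0.503%) Fed-only, and 14 and 7 genes were called the same way for both marks. Those 14 were led by Reg3b, Cc2d2a of the ciliary transition zone, Aire, the thymic autoimmune regulator, Rnase12 and Dnah6, an axonemal dynein. The 7 were led by Cep131, Ubtd2, Pam, Hectd2 and Atad2, a bromodomain protein. With peaks at least 500 bp wide the H3K9ac calls of Reg3b, Aire, Rnase12, Hectd2 and Atad2 were lost. For H3K9ac with tetracycline, 423 genes (1.93%) were Fast-only and 270 (1.23%) Fed-only, and 17 and 9 genes were called the same way in both tetracycline states. Cc2d2a, Dnah6 and Tcaf2 were Fast-only for H3K9ac in both tetracycline states and for H3K27ac without tetracycline. None of the 3 was Fast-only for H3K27ac with tetracycline. Cc2d2a was marked there in 0 Fed and 0 Fast lists, Dnah6 in 1 and 2, and Tcaf2 in 0 and 1. The other leading genes with tetracycline were Cd276 and 1190005I06Rik for Fast, and Mvb12a of the ESCRT-I complex, Prex1, Sf1, a splicing factor, Chd3, a chromatin remodeller, and Tsfm, a mitochondrial elongation factor, for Fed.

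Lists of genes for crypt cell types and for the metabolic response to fasting were read in the same table. Of 292 listed genes found, 4 (1.37%) were Fast-only and 5 (1.71%) Fed-only, shares near the 1.23% and 1.48% of all genes, and the median difference in the number of marked lists was 0 in every list as over all genes.

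In the list of 25 genes of ketone body synthesis and fatty acid oxidation, 19 and 23 were marked in Fed and 23 and 22 in Fast, and 15 in all 4 lists. None was Fast-only or Fed-only with all peaks, but Oxct1 was Fed-only with peaks at least 500 bp wide. Angptl4, a PPAR target that inhibits lipoprotein lipase, had no peak in Fed list 1, 807 bp in Fed list 2, and 1041 and 2930 bp in Fast. It was picked after its values were seen.

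At Cpt1a, Ppara and Pdk4 the Fed and Fast lists overlapped in peak width. Cpt1a, the enzyme that admits fatty acids to mitochondria, was marked in all 4 lists, with peaks of 3045 and 4859 bp in Fed and 942 and 4950 bp in Fast. Ppara, the receptor that drives fatty acid oxidation genes, had 1629 and 2525 bp in Fed and 2458 and 2286 bp in Fast. Pdk4, the kinase that spares pyruvate, had peaks in both Fed lists (1057 and 955 bp) and in Fast list 1 (1772 bp) and none in Fast list 2. Of 18 FoxO, insulin and glucocorticoid genes none was called, and 9 were marked in all 4 lists.

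Among 17 genes of sterol and fatty acid synthesis, 14 and 15 were marked in Fed and 12 and 11 in Fast. Fasn was the one called, Fed-only, with peaks of 1486 and 2126 bp that scored 77.3 and 163, and the call was the same with peaks at least 500 bp wide and at its start site. H3K27ac marked Fasn in all 4 lists without tetracycline. Acly, which makes cytosolic acetyl-CoA from citrate, was marked at an end in all 4 lists, with peaks of 1761 and 2062 bp in Fed and 526 and 553 bp in Fast, and was Fed-only at its start site; it too was chosen after its values were seen.

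Of 14 stem cell genes, 5 and 11 were marked in Fed and 11 and 10 in Fast, and none was called. Olfm4, a stem cell marker, had no peak in Fed list 1, 596 bp in Fed list 2, and 860 and 1384 bp in Fast. Lgr5, the Wnt-amplifying receptor of crypt stem cells, had 1 peak of 466 bp, in Fast list 2, and Ascl2, a stem cell transcription factor, 1 of 596 bp, in Fast list 1. Of 16 regeneration genes, 2 and 8 were marked in Fed and 5 and 4 in Fast. Il1rn, the interleukin-1 receptor antagonist, was Fast-only with peaks of 1144 and 847 bp. H3K27ac marked Il1rn in every list of that mark, and H3K9ac with tetracycline marked it in 1 Fed list and no Fast list. Tead4, a DNA-binding partner of YAP, was Fed-only with 1059 and 1422 bp, although H3K27ac without tetracycline marked it in both Fast lists and no Fed list. Clu, a marker of revival stem cells, had 1 peak of 702 bp, in Fed list 2, and Ly6a had none. Mki67, the proliferation marker, was marked in every list but Fed list 1, and of 18 cell cycle genes 10 and 15 were marked in Fed and 14 and 14 in Fast.

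Few Paneth cell genes were marked. Of 9 Paneth genes 0 and 2 were marked in Fed and 0 and 3 in Fast. Lyz1, Paneth lysozyme, had peaks of 353 bp in Fed list 2 and 393 bp in Fast list 2. Among 10 goblet genes Zg16, a secreted lectin, was Fed-only (673 and 573 bp), and Muc2, the main gel-forming mucin, had no peak. Of 12 enteroendocrine genes 2 and 5 were marked in Fed and 6 and 2 in Fast. Gip, the incretin of K cells, was the one called, Fed-only (443 and 828 bp). It was not called with peaks at least 500 bp wide or at its start site. Of 16 defence genes 6 and 8 were marked in Fed and 10 and 9 in Fast. Reg3b was Fast-only with peaks of 200 and 997 bp, the first at the narrowest width deposited, and was not called with peaks at least 500 bp wide. Reg3g, its neighbour and fellow lectin, had 1 peak of 570 bp, in Fast list 2. Nos2, inducible nitric oxide synthase, was Fed-only with peaks of 678 and 943 bp that scored 55.9 and 313. H3K27ac without tetracycline marked Nos2 in both Fed and both Fast lists. Hnf4a, a nuclear receptor of enterocyte identity, was marked at an end in Fed list 2 and Fast list 1, and at a start site in all 4 lists.

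Of 14 enterocyte genes 12 and 14 were marked in Fed and 10 and 14 in Fast. Of 10 tuft cell genes 0 and 3 were marked in Fed and 4 and 1 in Fast, and of 12 housekeeping genes 10 and 11 in Fed and 11 and 9 in Fast. With all peaks at gene ends these 3 lists held no call. The housekeeping gene Eef1a1 was Fed-only with peaks at least 500 bp wide and at its start site. The tuft cell gene Ptgs1 was Fast-only at its start site. The 40 writers, readers and erasers of histone acetylation were marked 29 and 35 times in Fed and 32 and 28 times in Fast. Hdac4, a class IIa deacetylase, was the one called at a gene end, Fast-only with peaks of 316 and 457 bp. Its start site was marked in all 4 lists, and no call remained with peaks at least 500 bp wide. Hdac7 had no peak at either end and was Fed-only at its start site. Ep300, Crebbp and Kat2b, which encode acetyltransferases, were marked in all 4 lists, and Kat2a, which encodes GCN5, in Fed list 2 alone. These 4 were picked after their values were seen. Myh6, a cardiac myosin gene read as a silent control, was Fast-only with peaks of 535 and 609 bp that scored 74.7 and 52.6.

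**Figure D5:**
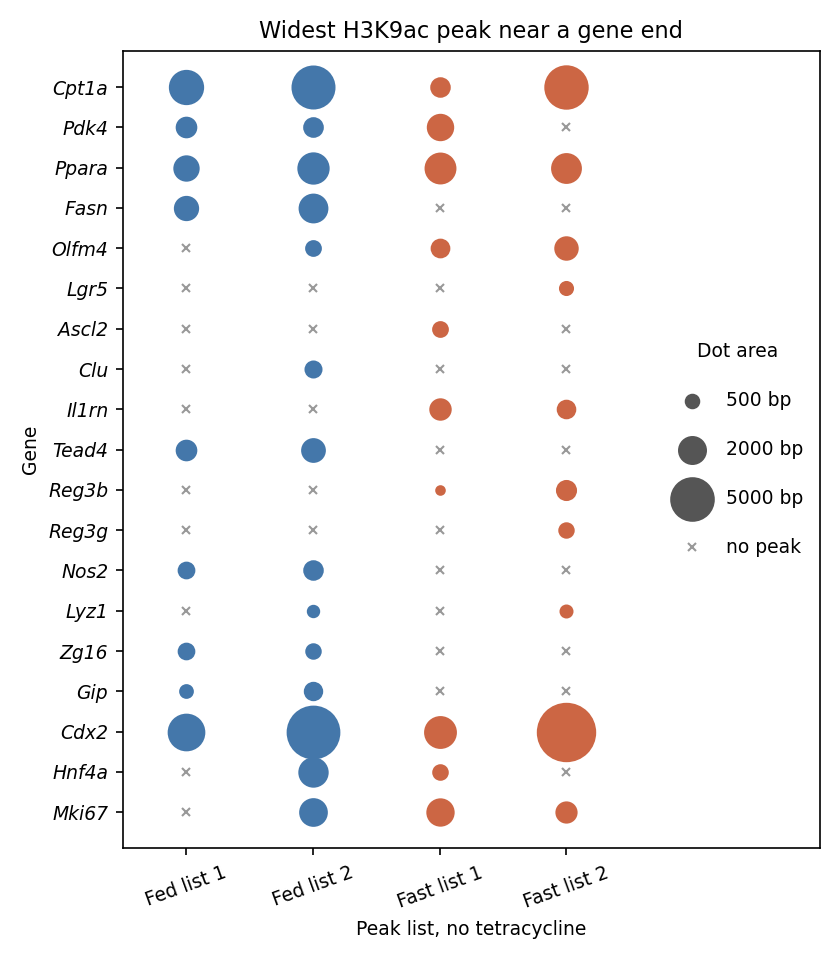
Width of the widest H3K9ac peak within 1 kb of either gene end (dot area, bp) for 19 genes (rows) in the 4 lists without tetracycline (columns), with crosses where no peak was called. Fasn has peaks of 1486 and 2126 bp in the Fed lists and none in Fast, and Il1rn has peaks of 1144 and 847 bp in the Fast lists and none in Fed.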

How the data were processed

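The CUT&Tag peak lists were used as the authors deposited them, each with a chromosome, start, end and a score per peak that is the authors' own, at least 50 and of unstated unit. Per the submitters' processing notes, FastQC, Bowtie, SAMtools and mm10 were used, with no versions or roles. Peak names begin with MACS per the files; its cutoff is not given in the sources used here. File naming calls the data downsampled, without read totals.

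Peaks sharing at least 1 bp were merged. Protein-coding genes came from RefSeq (GRCm38.p6). Start sites were to serve if known for 80% of genes; 79.9% had one, so both gene ends served, also for the planned share of peaks at gene starts. Exact permutation tests enumerated every arrangement, and scripts were tested on simulated data. Members and gene lists were chosen with earlier results of these data known, and 1 of 293 listed genes was not found. Named were up to 10 genes and 5 regions per direction called with both peak sets, up to 5 of each also called for H3K27ac or with tetracycline, all called list genes and 17 preset genes, ranked by the lower within-list score percentile. A preset gene and a region that this rule names are not reported here. Software was Python 3.11.15 with scipy 1.17.1, pandas 2.3.3, numpy 2.4.6 and matplotlib 3.10.9.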

Additional observations from a re-analysis of the deposited data

How the results depend on the processing

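Peaks at least 500 bp wide, equal numbers of top peaks and the upper 0.5 by score gave 750, 180 and 585 Fast-only regions. Fed-only regions moved to 1772 with equal numbers and 736 with the upper 0.5. The log2 ratio of Fast-only over Fed-only regions reversed from 0.76 to -0.55, -3.30 and -0.33, and the cause was not tested. Fast-only genes became 151, 68 and 174, and 486 with a window of 2.5 kb or 179 with start sites only. Fed-only genes became 998 with equal numbers. With the window of 2.5 kb they were 238, so there Fast-only genes were the more numerous class. Covered length reversed to -0.52 with equal numbers. With the lists of a sample averaged, the readout difference of 10.1 points is the same by construction. There p could not go below 0.25 (exact permutation). An overlap of 0.5 of the shorter peak, bridged gaps and all sequences kept the counts of regions within 1.5 times.

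Leaving out 1 list at a time, a call needs fewer lists and counts rise by construction. Fast-only regions ran from 2203 to 81947, Fed-only regions from 2502 to 32251 and their log2 ratio from -3.87 to 5.03, Fast-only genes from 415 to 1852 and Fed-only genes from 495 to 1311. Peak number ran from 0.21 to 1.79, covered length from -0.12 to 1.11, the share at gene ends from -29.1 to -3.48 points, core width from -0.23 to 0.12, and the readout difference from 3.62 to 6.86 points.

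The list number appears only in the names of the lists. The list 1 minus list 2 differences of Fed and Fast correlated at 0.22 over regions and -0.0034 over genes. With a replicate block on it, the readout difference was 10.1 points (exact permutation p = 0.031), and peak number, covered length and share at gene ends kept 1.0, 0.50 and -16.3 (exact permutation p = 1.0 each). Core width kept -0.052 (exact permutation p = 0.50). A block changes only the arrangements that are enumerated, so all these sizes are the same by construction. Equal lengths of the readout lists, regions at or away from gene ends and regions 700 to 1000 bp wide were chosen after the data were seen, as were start sites and the log2 ratio. The unknown depth limits all values: a missing peak may be a peak below the cutoff.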
